A study of Mus musculus with 5 samples.

Results

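Timp3 and Thbs1, a pair of genes for secreted regulators of the extracellular matrix, were followed by RNA polymerase II occupancy in 5 adult mouse tissues. Their loci were taken as fixed windows in the deposited coordinates, read as build mm9: chr10:85740001-85840000 (100 kb) for Timp3, which lies inside the synapsin gene Syn3, and chr2:117920001-117970000 (50 kb) for Thbs1. The windows were selected on their polymerase read density in kidney and lung in these same libraries, so levels and folds are given as a description, with no test. Merging the authors' peaks of all tissues, each extended by 250 bp to both sides, gave 186413 regions in the genome, of which 67 lay in the windows, 51 at Timp3 and 16 at Thbs1.

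The groups were kidney, lung, brain, liver and spleen, freshly dissected from adult FVB mice, with chromatin immunoprecipitation and sequencing of 1 library per tissue and an antibody against RNA polymerase II. Sex, age in weeks and the number of animals behind a library are not given in the labels. Each library pools all cell types of its organ, so more cells of a type and more polymerase per cell cannot be told apart. No control or input library and no replicate was used here, and no difference between tissues could be set against variation between animals. Intervals are 95% and cover counting error only. Since the reads carry no molecular identifiers, they cannot be taken as independent molecules. The labelled tissues were not set against marker genes, since no gene annotation of the files' build was used.

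RNA polymerase II starts transcription at a promoter, often pauses just past it, and then travels through the gene body, so immunoprecipitated reads along a gene show where the enzyme was engaged. TIMP3 inhibits metalloproteinases, among them ADAM17 and several ADAMTS enzymes, and unlike the other TIMP proteins it binds tightly to the matrix. Kidney and lung are known as sites of high Timp3 expression. THBS1 (thrombospondin 1) is a matricellular glycoprotein that binds CD36 and CD47, restrains the growth of blood vessels and can activate latent TGF-beta. Syn3 encodes a synapsin, a protein of synaptic vesicles, and is read in the direction opposite to Timp3.

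The promoter of Timp3 is shown because the region of the first peak shared by kidney and lung in its window carried reads in all libraries. The sequence is the RefSeq promoter window on build GRCm38.p6, chr10:86300162-86300461, plus strand, from 250 bases before to 50 bases after the annotated start. These coordinates belong to another build than the reads and were not used to place them. Capitals mark matches to TATAA and to GGGCGG (the GC box, read here as its reverse complement CCGCCC).
Timp3 promoter: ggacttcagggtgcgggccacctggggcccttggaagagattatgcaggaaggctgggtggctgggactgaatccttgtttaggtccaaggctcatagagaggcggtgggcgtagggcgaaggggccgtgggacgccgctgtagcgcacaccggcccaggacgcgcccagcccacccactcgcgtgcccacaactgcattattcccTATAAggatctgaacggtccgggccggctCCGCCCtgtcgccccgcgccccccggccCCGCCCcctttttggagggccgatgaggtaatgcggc
The TATAA match begins 44 bases before the annotated start, and the GC box matches begin 15 bases before it and 13 bases past it. Of 32851 mouse promoter windows of the same length in this table, 24.9% hold TATAA and 35.7% hold GGGCGG on either strand. TATAA lies within the longer TATAAA, which has no match here and is present in 13.6% of the windows, and CCAAT also has no match, against 37.4% of the windows. The window holds 24 CG dinucleotides, against a median of 7, and 19.98% of the windows hold at least as many. These matches describe letters only. They say nothing of which factor binds.

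The libraries held 10292262 to 14964934 aligned reads. Reads were counted at their 5′ ends in bins of 1 kb and divided by a scaling factor, 1.09 for kidney, 1.13 for lung, 1.03 for brain, 1.17 for liver and 0.671 for spleen, from the regions that reached 20 reads in all libraries. Scaling by total reads instead gave 1.10, 0.867, 0.823, 1.20 and 1.06 in the same order, which raises lung and brain and lowers spleen relative to kidney. Levels at the ends of the windows were high in spleen after scaling. In the 15 kb at the left end of the Timp3 window kidney held 9.59 normalised reads per kb, lung 7.77, brain 4.78, liver 6.16 and spleen 10.3. Ratios taken within a library, which need no scaling between libraries, are given beside the levels.

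At Timp3, polymerase covered a long continuous block in kidney and lung and a far weaker one in brain. The block, called the span, is the longest run of bins whose mean over tissues was at least 2 times that of the left-end flank of 15 kb, a definition made after the data were seen. It ran for 52 kb, chr10:85763001-85815000. The span is set by reads alone, and the ends of the gene were not placed in these coordinates. The span held 6516 kidney reads, with 2930 in lung, 761 in brain, 492 in liver and 413 in spleen. As normalised reads per kb these were 115 (112 to 118) in kidney, 49.7 (47.9 to 51.6) in lung, 14.2 (13.2 to 15.2) in brain, 8.10 (7.40 to 8.85) in liver and 11.8 (10.7 to 13.0) in spleen. Kidney stood above lung in 51 of the 52 bins, and both stood above brain, liver and spleen in all 52 of them. Bins entered the span by a mean that kidney and lung mostly set, so their lead over the other tissues is partly built in.

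**Figure D1:**
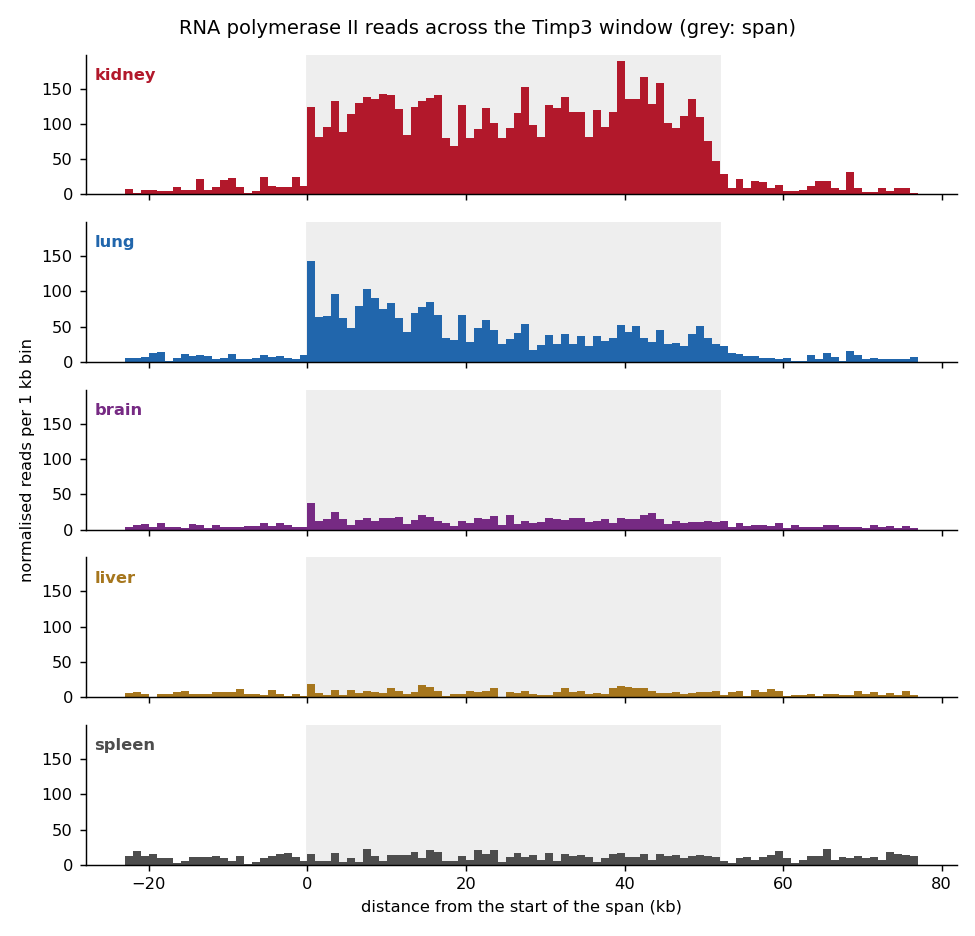
Normalised RNA polymerase II reads per 1 kb bin across the Timp3 window in the library of each tissue, against distance in kb from the start of the span, which is shaded grey. Kidney bins lie between 46.7 and 189 normalised reads, with the lowest at the right end of the span, lung falls along it, and liver and spleen stay near the level of their flanks.

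Kidney was 8.10-fold (7.51 to 8.74) over brain, the highest of brain, liver and spleen, and lung was 3.51-fold (3.24 to 3.804) over brain. The kidney level was 2.31-fold (2.21 to 2.41) that of lung. With scaling by total reads this last fold was 1.75. Brain exceeded spleen by 1.20-fold (1.06 to 1.35), and spleen exceeded liver by 1.46-fold (1.28 to 1.67). With scaling by total reads the order of spleen and liver was not settled, at 0.946 (0.828 to 1.08), and brain was 2.38-fold (2.11 to 2.69) over spleen.

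Within each library, the span stood 11.97-fold (10.2 to 14.1) over its own flank in kidney, 6.40-fold (5.38 to 7.68) in lung and 2.97-fold (2.33 to 3.82) in brain. In liver this ratio was 1.31 (1.07 to 1.63) and in spleen 1.15 (0.922 to 1.43), the only one of these intervals at Timp3 to include 1. With background subtracted the ratios rose beyond these intervals, to 19.9 in kidney, 9.81 in lung, 6.32 in brain, 1.97 in liver and 1.51 in spleen. Their size thus depends on how background is treated. The span makes up 52% of the window and held 91.9% of the window's reads in kidney (exact binomial interval 91.2% to 92.5%), 88.1% in lung, 75.3% in brain, 61.9% in liver and 55.3% (51.6% to 58.9%) in spleen. Spleen reads, background included, were thus spread nearly evenly over the window.

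**Figure D2:**
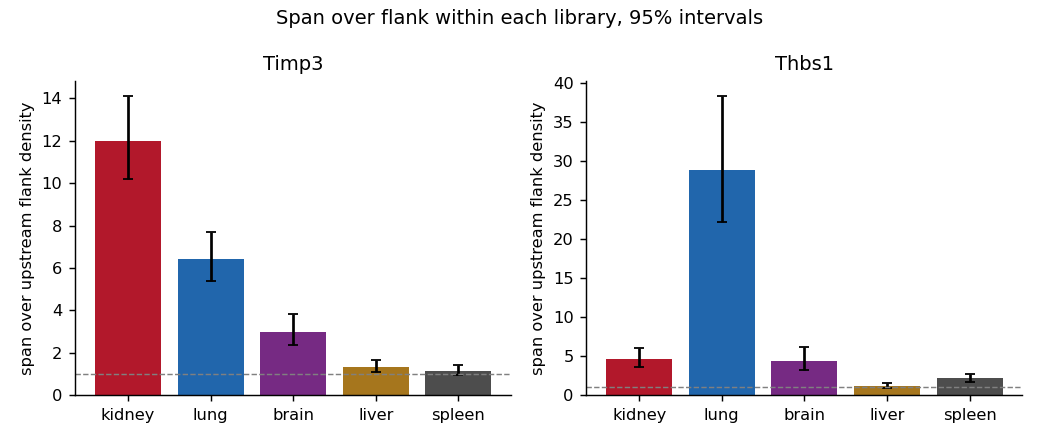
Read density in the span over that in the upstream flank of 15 kb, within each library, for Timp3 (left) and Thbs1 (right), with 95% intervals of counting error and a dashed line at 1. No background is subtracted. Kidney leads at Timp3 with 11.97, lung leads at Thbs1 with 28.8, and liver lies near 1 at both genes.

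The authors' peak lists differ in length, from 31594 peaks in spleen to 91712 in brain, so their counts set no order between tissues. They place 60 peaks in the Timp3 window in kidney, 53 in lung, 21 in brain, 1 in liver and 2 in spleen. With 31594 peaks drawn from each list, the median over 100 draws was 23 in kidney and 23 in lung, against 7 in brain, 1 in liver and 2 in spleen. Of all 100 kb tiles of the genome with reads, 0.19% held at least as many kidney peaks and 0.139% at least as many lung peaks. The window was selected on these same libraries, so nothing is read from these shares. In the span, the median gap between neighbours was 950 bp for the 51 kidney peaks and 1000 bp for the 50 lung peaks, against 2250 bp and 3000 bp over these whole lists. The 21 brain peaks had a median spacing of 1850 bp. A lung peak lay at a median of 225 bp from the nearest kidney peak, and 13 of the 50 lay within 100 bp of one. The values that peak spacing alone would give were not worked out, so nothing is read from these on shared positions.

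In the first 1 kb of the Timp3 span the kidney lead was absent. The first region with a peak in both, chr10:85763241-85763821, also had a peak in brain and in liver. Its count was 101 in kidney, 129 in lung and 28 in brain, with 16 in liver and 10 in spleen. After scaling these were 92.6 in kidney, 113.8 in lung, 27.1 in brain, 13.7 in liver and 14.9 in spleen, and kidney over lung was 0.813 (0.620 to 1.06). The listed peaks lay at position 85763491 in kidney, 85763571 in lung, 85763506 in brain and 85763556 in liver. In this region the median minus-strand read lay to the right of the median plus-strand read, by 216.5 bp in kidney and 158.5 bp in lung. Across the 3 kb around the bin with the highest mean, 85762001 to 85765000, both kidney and lung had 72.1 normalised reads per kb, against 17.8 in brain, 8.56 in liver and 8.95 in spleen. Kidney over lung was 1.00 (0.833 to 1.20) there, and 0.758 with scaling by total reads. The first 1 kb of this zone lies before the span. In a zone of 5 bins the ratio was 1.18 (1.01 to 1.37).

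The first 1 kb of the span stood out from the rest of it in lung and brain but not in kidney. Relative to the remaining 51 kb its density was 1.08 times (0.903 to 1.28) in kidney. It was 2.98 times (2.53 to 3.498) in lung, 2.75 times (1.94 to 3.803) in brain and 2.27 times (1.39 to 3.52) in liver, and in spleen, with 10 reads in the bin, it was 1.27 times (0.602 to 2.35). The highest bin of the window was this first one in lung, brain and liver, with 143 normalised reads in lung, 37.8 in brain and 18.0 in liver. In kidney it lay 39 kb further on, at 85802001 to 85803000, with 189 normalised reads from 206 reads.

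The long stretches of the span had like levels in kidney and unlike levels in lung. In kidney the first 18 kb of the span held 119 (114 to 124) normalised reads per kb, the middle 17 kb held 108 (103 to 113) and the last 17 kb held 117 (112 to 122), although its final 2 bins were lower, at 75.1 and 46.7. Lung held 74.8 (71.1 to 78.7), 37.5 (34.8 to 40.3) and 35.4 (32.8 to 38.2) in the same stretches. The last stretch had 0.986 times (0.930 to 1.046) the density of the first in kidney and 0.473 times (0.432 to 0.518) in lung. In brain this ratio was 0.838 (0.703 to 0.998), in liver 1.01 (0.812 to 1.25) and in spleen 0.970 (0.759 to 1.24). The interval of lung overlapped none of the other libraries' intervals. These ratios are taken within a library, and in kidney and lung they stayed inside these intervals with repeated reads removed, with background subtracted, with read positions shifted and with thinned libraries.

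In steps of 4 kb, lung had 92.0 normalised reads per kb at the start, 49.9 from 16 to 20 kb and 25.8 from 28 to 32 kb, then between 30.0 and 39.1 to the end of the span. Kidney lay between 91.4 and 141 in all 13 steps. Kidney over lung was 1.17 (1.03 to 1.34) in the first step, 2.09 (1.78 to 2.46) from 16 to 20 kb and 4.17 (3.3996 to 5.15) from 28 to 32 kb, and it was 2.44 (2.03 to 2.93) in the last. The size of the kidney lead at Timp3 thus depended on where in the span it was read.

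**Figure D3:**
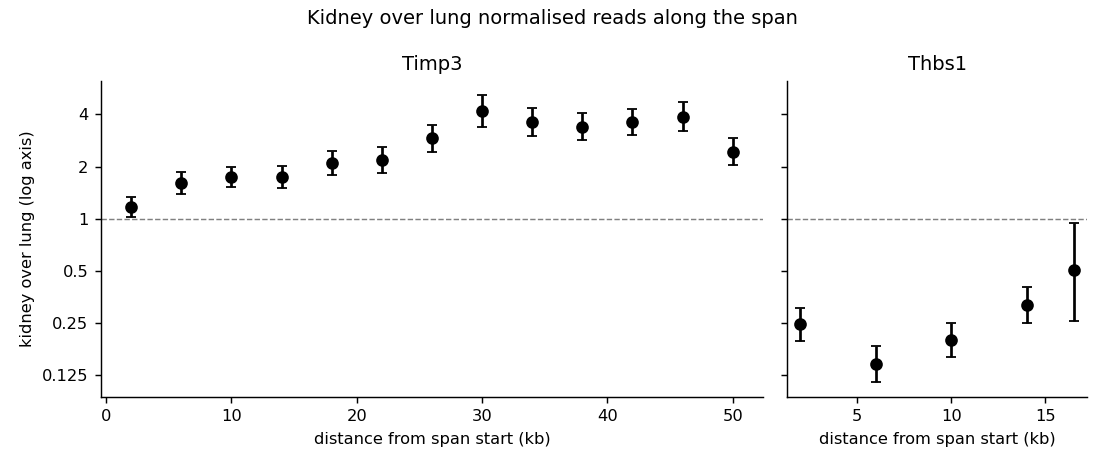
Kidney over lung normalised reads in steps of 4 kb along the span of Timp3 (left) and Thbs1 (right, last step 1 kb), on a log axis with 95% exact conditional binomial intervals and a dashed line at equal levels. At Timp3 the ratio is 1.17 in the first step and reaches 4.17 from 28 to 32 kb, while at Thbs1 every step lies below 1.

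Of the 51 Timp3 regions, 7 lay before the span, 40 touched it and 4 lay after it. Regions with at least 20 reads numbered 41 in kidney and 36 in lung. A level of at least 4 times that of each of brain, liver and spleen, with counts under 3 set to 3, was reached by 37 of the 41 in kidney, where 5.59% of such regions in the genome reach it, and by 12 of the 36 in lung, where 1.61% do. These contrasts were used in choosing the gene, so nothing is read from the comparison of shares. Kidney and lung both reached it in 11 regions, against 41 (0.201%) in the whole genome. These 11, or 26.8% of the 41, are pieces of the same span, and nothing is read from this share either. The first region of the span was not among the 37 in kidney, at 3.41-fold (2.23 to 5.39) over brain, but was among the 12 in lung, at 4.20-fold (2.77 to 6.56). The other 3 kidney regions with 20 reads that missed the level held 21 to 31 reads, and the ones at 85760941 and 85831141 lay outside the span.

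Kidney exceeded lung at least 2-fold in 26 of the 41 regions, and 38.4% of such regions in the genome do. Over the 36 regions that passed 20 reads in kidney and in lung, the kidney over lung ratio ran from 0.813 to 5.71 with a median of 2.35, and its interval lay above 1 in 34 of them and below 1 in 0. In the genome 18.4% of such regions lie above 1 and 14% below, and since the choice of the gene used this contrast, nothing is read from the shares. With scaling by total reads, an alternative added after the data were seen, 24 of the 36 lay above 1 and 1, the first region of the span, lay below, against 7.82% and 28.5% in the genome. Regions ranked by mean reads per region, with no division by length, were led by long merged stretches of the span. The one at 85783491 to 85786756 held 379 kidney reads and 184 lung reads, against 52 in brain, 34 in liver and 38 in spleen. The one at 85801721 to 85803321 held 299, 81, 21, 30 and 20 in the same order, and kidney over lung was 3.83 (2.99 to 4.96) there. The region at 85768491 to 85769421, among those of largest kidney fold, was 15.5-fold (6.46 to 48.5) over spleen in kidney, with 126 reads in kidney and 76 in lung, against 7 in brain, 8 in liver and 5 in spleen. The same region was 8.996-fold (3.69 to 28.5) over spleen in lung. The region at 85771841 to 85772341 held 80 reads in kidney and 57 in lung, against 4 in brain, 5 in liver and 2 in spleen.

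The parts of the Timp3 window outside the span did not carry more reads in brain than elsewhere. In the 15 kb at the left end brain had 4.78 (3.75 to 5.999) normalised reads per kb, and in the last 15 kb of the window 4.004 (3.07 to 5.13), against 9.59 and 9.77 in kidney and 7.77 and 6.18 in lung. Brain had no listed peak outside the span. In the 8 kb just before the span, kidney had 12.6 (10.4 to 15.2) normalised reads per kb, 1.31 times (1.02 to 1.69) its flank, while lung had 6.73 (5.15 to 8.64). Kidney peaks lay in 6 of the 7 regions before the span and in 3 of the 4 after it, with 11 to 31 reads each. Regions are made from the peaks of all tissues, so nothing is read from these counts. In the 10 kb after the span kidney had 13.6 normalised reads per kb, 1.41 times (1.12 to 1.78) its flank, and lung 8.65, 1.11 times (0.849 to 1.46).

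At Thbs1, lung stood alone. The span, found in the same way, ran for 17 kb, chr2:117937001-117954000. It held 385 kidney reads, with 1831 in lung, 226 in brain, 107 in liver and 237 in spleen. As normalised reads per kb these were 20.8 (18.7 to 22.9) in kidney, 95.1 (90.8 to 99.5) in lung, 12.9 (11.3 to 14.7) in brain, 5.39 (4.42 to 6.51) in liver and 20.8 (18.2 to 23.6) in spleen. Lung was the highest tissue in all 17 bins, which is partly built in, since lung mostly set the mean by which bins entered the span. Kidney was above brain, liver and spleen in 10 of the 17.

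**Figure D4:**
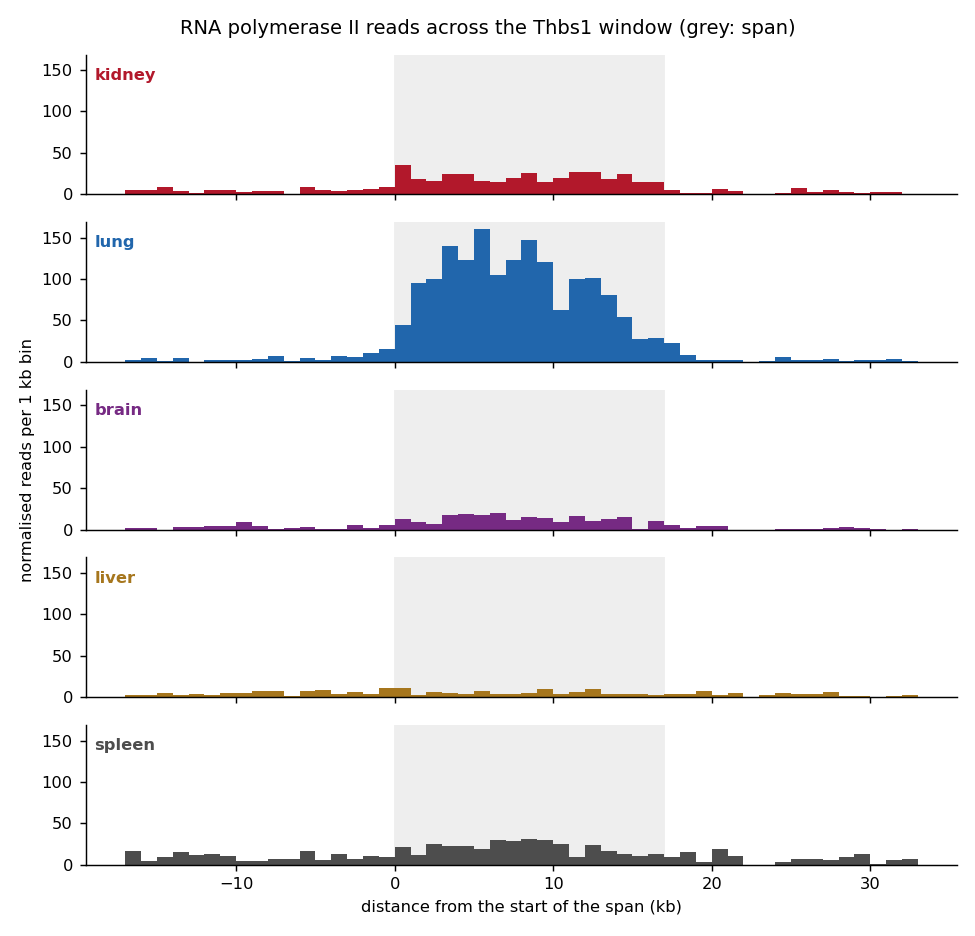
Normalised RNA polymerase II reads per 1 kb bin across the Thbs1 window in the library of each tissue, against distance in kb from the start of the span, which is shaded grey. Lung reaches 161 normalised reads in its highest bin, while kidney, brain and spleen form low blocks and liver stays near its flank.

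Lung was 4.57-fold (3.99 to 5.26) over spleen, the highest of brain, liver and spleen, and 7.69-fold over brain, then the next tissue, when libraries were scaled by total reads. Kidney over lung was 0.218 (0.195 to 0.244). Spleen and kidney were not separated, at 1.00 (0.848 to 1.18) for spleen over kidney, which became 0.639 (0.541 to 0.753) with scaling by total reads. Kidney exceeded brain by 1.61-fold (1.36 to 1.91), and brain exceeded liver by 2.39-fold (1.89 to 3.04). With scaling by total reads kidney over brain was 1.27 (1.08 to 1.51). The kidney flank was also above that of brain, at 4.46 against 2.97 normalised reads per kb. The kidney library thus held more normalised reads in the Thbs1 span than brain and liver, with background included. Whether it lay above or below spleen depended on the scaling.

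Within each library, the Thbs1 span stood 4.65-fold (3.62 to 6.06) over its flank in kidney and 28.8-fold (22.1 to 38.3) in lung. The ratio was 4.34 (3.15 to 6.09) in brain, 1.17 (0.865 to 1.58) in liver and 2.11 (1.66 to 2.70) in spleen. Kidney and brain were not separated by this measure, and liver alone had an interval that included 1. The span makes up 34% of the window and held 73.3% of its reads in kidney, 92.1% in lung, 72.9% in brain, 39.9% (34.02% to 46.1%) in liver and 55.4% in spleen. The peak lists, of unequal length, place 9 peaks in the window in kidney, 18 in lung, 4 in brain, 0 in liver and 1 in spleen, with draw medians of 4 in kidney, 8 in lung, 1 in brain, 0 in liver and 1 in spleen. Of 50 kb tiles of the genome, 5.82% held at least as many kidney peaks and 1.15% at least as many lung peaks. As at Timp3, nothing is read from these shares.

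The first bin of the Thbs1 span was the one where kidney came nearest to lung. It held 38 kidney reads and 51 lung reads, against 13 in brain, 13 in liver and 14 in spleen, or 34.8 (24.6 to 47.8) normalised reads in kidney and 45.0 (33.5 to 59.2) in lung. In kidney it was the highest bin of the window and had 1.75 times (1.22 to 2.45) the density of the rest of the span. In lung it had 0.458 times (0.340 to 0.605) that density, and the highest bin lay 5 kb further on, with 161 normalised reads. Just before the span, in 2 kb, kidney had 7.33 normalised reads per kb, 1.64 times (0.893 to 2.85) its flank, and lung 13.2, 4.02 times (2.49 to 6.37). The lung profile at Thbs1 thus differed in shape from that at Timp3, where the first bin was the highest. The first region with a peak in both, chr2:117937506-117938116, held 32 reads in kidney and 44 in lung, against 11 in brain, 8 in liver and 7 in spleen, with peaks at 117937756 in kidney and 117937866 in lung. Both peaks lay in the right part of the first bin, 117937001 to 117938000. The level of that bin, and its contrast with Timp3, thus depend on where bins begin.

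Along the Thbs1 span, kidney held 22.3 (18.8 to 26.2) normalised reads per kb in the first 6 kb, 20.01 (16.7 to 23.7) in the middle 6 kb and 19.8 (16.2 to 23.9) in the last 5 kb. Lung held 111 (103 to 119), 109.9 (102 to 118) and 58.6 (52.5 to 65.3) in the same stretches. The last stretch had 0.888 times (0.686 to 1.15) the density of the first in kidney and 0.530 times (0.464 to 0.604) in lung. In brain this ratio was 0.743, in liver 0.753 and in spleen 0.761, each with an interval that included 1. Kidney over lung was lowest from 4 to 8 kb, at 0.145 (0.114 to 0.184). Past the end of the span, in the next 10 kb, kidney had 3.12 normalised reads per kb, lung 4.85, brain 2.03, liver 4.02 and spleen 7.46, all near their flanks.

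**Figure D5:**
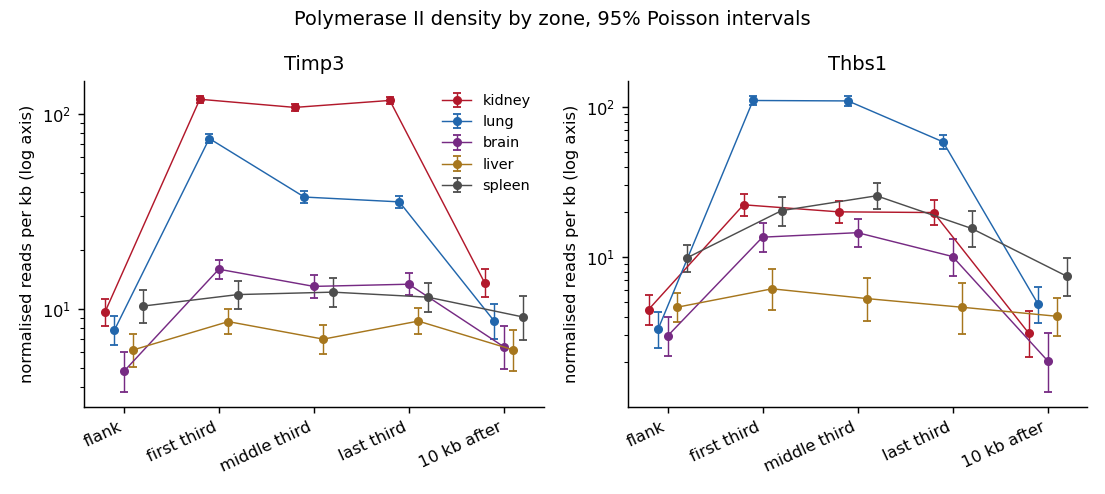
Normalised RNA polymerase II reads per kb, on a log axis, in the upstream flank, the first, middle and last stretches of the span and the 10 kb after it, for Timp3 (left) and Thbs1 (right), with 95% Poisson intervals. In lung the last stretch lies below the first at both genes, while in kidney the stretches lie close together.

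All 16 Thbs1 regions touched the span and all had a lung peak, 9 of them a kidney peak too. Since regions are made from the peaks themselves, nothing is read from these peak counts. Regions with at least 20 reads numbered 6 in kidney and 14 in lung. At least 4 times each of brain, liver and spleen was reached by 0 of the 6 in kidney and 9 of the 14 in lung. Of such regions in the genome, 5.59% reach it in kidney and 1.61% in lung, so 0 of 6 in kidney is near the genome share. Lung was at least 4-fold over kidney in 9 of the 14, against 3.9% of such regions in the genome. Over the 6 regions that passed 20 reads in kidney and in lung, the kidney over lung ratio ran from 0.180 to 0.755, and its interval lay below 1 in 5 of them, and in 6 with scaling by total reads. The exception was the first shared region, at 0.755 (0.463 to 1.22). In the genome 14% of such regions lie below 1, and 28.5% with scaling by total reads. The gene was chosen on these contrasts, so nothing is read from the shares. Among those with most reads per region, the region at 117941406 to 117942366 held 26 reads in kidney and 150 in lung, against 22 in brain, 9 in liver and 11 in spleen. That at 117943316 to 117944316 held 15 in kidney and 119 in lung, against 15 in brain, 3 in liver and 20 in spleen. The region at 117945456 to 117946016 was 8.14-fold (3.99 to 19.3) over spleen in lung, with 110 reads there and 20 in kidney, against 8 in spleen. Among kidney regions with 20 reads, the one with the largest fold was the first shared one, at 2.75 (1.35 to 6.05) over brain.

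Read over whole windows, Timp3 was 5.83-fold (5.41 to 6.30) higher in kidney and 2.64-fold (2.43 to 2.86) higher in lung than in spleen, the next tissue. Of 25216 tiles of 100 kb, 1 (0.00397%) reached the kidney fold and 1 (0.00397%) the lung fold, against a median tile fold of 0.506 in kidney and 0.383 in lung. Thbs1 in lung was 2.75-fold (2.48 to 3.06) over spleen, reached by 8 of 50119 tiles of 50 kb (0.016%). Thbs1 in kidney was 0.754-fold (0.662 to 0.858) relative to spleen, a value reached by 15.5% of tiles. The windows were selected on read density in these same libraries, so nothing is read from the tile shares. Reads lay on both strands in like number. In the spans, the plus-strand share in kidney and lung ran from 47.4% to 51.4%. Repeated reads, at a position and strand already seen, made up 6.81% of the Timp3 span in kidney and 8.16% in lung, and 4.68% of the Thbs1 span in kidney and 11.0% in lung.

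Across the 52 bins of the Timp3 span, Spearman's rho between kidney and lung was 0.550. It was 0.516 between kidney and liver, though liver reads stood little above their flank. Bins share the ease with which reads align to them in all libraries, so this is a description only. The other TIMP and thrombospondin genes, and the proteases and receptors they act on, were not analysed here.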

How the data were processed

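Chromatin immunoprecipitation with an antibody against RNA polymerase II was sequenced in kidney, lung, brain, liver and spleen of FVB mice, 1 library each, per the labels. The authors deposited aligned reads (chromosome, start, end, strand) and 1 list of peak positions per library, with no height, score or p-value. Alignment software named in the submitters' processing notes is Bowtie. Its version, the build and the peak caller: not given in the sources used here. Each library lost 4 to 15 lines whose length fell outside 34 to 36 bases. Libraries were scaled by the median of ratios in 8222 regions. With 1 library per tissue no p-value was computed. Folds have exact conditional binomial intervals, levels exact Poisson intervals and shares Clopper-Pearson intervals. Tiles count when 1 library has at least 20 reads. Regions named are, per window, the 5 of highest mean level and the 3 of largest kidney and of largest lung fold, some of which are given. The genes, the lists and the alternatives were chosen with earlier results of these data known, and the spans, their stretches and the ratios along them after the data were seen. The sequence is from RefSeq. Computation used SciPy 1.17.1, pandas 2.3.3 and NumPy 2.4.6 in Python 3.11.15, and figures Matplotlib 3.10.9.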

Additional observations from a re-analysis of the deposited data

How the results depend on the processing

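No paired analysis was possible because each tissue had 1 library. Removing repeated reads, shifting reads by 100 bp toward the fragment, thinning to the smallest library, and taking 1 or 5 bins around the highest bin each left the window and highest-bin folds inside their intervals and the region counts within 1.5 times. Scaling, background and the use of spleen moved others, and the cause was not tested. With scaling by total reads, the Timp3 window was 5.24-fold in kidney and 3.12-fold in lung over brain, with kidney over lung at 1.68 and at 0.758 around the highest bin. For the Thbs1 window this scaling gave 1.18 in kidney and 5.69 in lung over spleen and 0.208 for kidney over lung, and around the highest bin 1.04, 9.04 and 0.115. With background subtracted, the Timp3 window gave 9.0004 in kidney, 3.89 in lung and 2.31 for kidney over lung, and the Thbs1 window 1.046, 6.42 and 0.163. Leaving out spleen gave 6.64 in kidney and 3.0004 in lung over brain for the Timp3 window, 1.60 and 5.84 for the Thbs1 window, and 1.46 and 9.61 around its highest bin. Over the window, the kidney value at Thbs1 relative to the next tissue therefore changed direction from 0.754 with scaling by total reads (1.04 to 1.35). It also did so without spleen (1.39 to 1.85), though the next tissue was then brain. With background subtracted, 1.046 has no interval of its own and settles no direction. Around the highest bin, where the kidney value was 0.666, no change of direction was settled. The intervals there included 1 with scaling by total reads (0.723 to 1.51) and without spleen (0.978 to 2.21). With background subtracted the value there was 0.700. At a fold of 2 in place of 4, lung regions numbered 31 at Timp3 and 14 at Thbs1, and kidney regions 1 at Thbs1. With peaks extended by 500 bp, regions merged and kidney had 10 at Timp3, and lung 5 at Timp3 and 4 at Thbs1. Genome shares at these changed settings are not given here, so nothing is read from the counts. With 31594 peaks per tissue, the median over 100 draws was 23 at Timp3 in kidney and in lung and 8 at Thbs1 in lung. The single draw first looked at had given 1 for the last, the lowest of the 100. A span set at 3 times the flank broke at the Timp3 bin 85781001 to 85782000, with a mean of 23.1, and its longest run lay to the right of it. It thus left out the start of the main span, where lung was highest. Over this later stretch kidney over lung was 3.14 (2.95 to 3.34), and lung over brain was 2.73 (2.45 to 3.04).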
